A study of Mus musculus with 96 samples.

Results

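Microglia sorted from mouse brain can carry RNA of other cells, and 9 transcripts known as markers of such cells were followed here through every library of the study. They are Ttr, Enpp2 and Kcnj13 for the choroid plexus epithelium, Mbp and Cnp for oligodendrocytes, and Ighm, Igkc, Cd79a and Cd79b for B cells. They were taken by name, as the rows whose Ensembl mouse gene ID maps to these symbols, and all 9 were present among 54532 gene models. The libraries came from wild-type mice, 1000 cells each, in a gate that kept CD11b+ Fcrls+ cells lacking Ly6C, and were made with Smart-seq2, which copies whole transcripts from little starting RNA. Each of 48 animals gave 1 hippocampus library and 1 hemisphere library, since the library names of both regions share a number. Old mice (20 to 22 months) after abdominal surgery numbered 7 at 6 h and 9 at 48 h, and old control mice 8 at each time. Young mice (3 to 5 months) after surgery numbered 4 at each time, and young control mice 4 at each time. The labels do not say how control animals were handled. This gives 16 groups and 96 libraries.

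The choroid plexus is the sheet of epithelium in the ventricles that secretes cerebrospinal fluid. Its cells make large amounts of transthyretin, the carrier of thyroxine and retinol encoded by Ttr. Oligodendrocytes wrap axons in myelin, and Mbp encodes a structural protein of that sheath. B cells carry an immunoglobulin of heavy and light chains on their surface, held with the signalling pair encoded by Cd79a and Cd79b, and plasma cells derived from them secrete it.

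The libraries summed to between 1874168 and 3778939 estimated counts, of which 15 gene models held 53.05% to 81.2%. Levels are given as CPM, counts per 1000000 of the library total scaled by TMM, a method that corrects for differences in composition. At these depths 3 counts, used here as the floor for a value of 0, corresponded to 0.550 to 1.64 CPM. This floor covers counting error only. The 12 microglial markers were high throughout: P2ry12 had a median of 510 CPM, Tmem119 634 CPM and Fcrls, the sorting marker, 372 CPM, and none of these was at 0 in any library. In 6 libraries, all at 6 h, low counts were spaced in steps larger than 1, and the fits were repeated without them.

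Levels of the 9 transcripts differed widely. Per kilobase of exon, the median over the 96 libraries was 42.04 CPM for Ighm and 38.1 CPM for Ttr, against 3.53 for Cnp, 3.36 for Cd79b, 1.25 for Enpp2, 0.855 for Mbp, 0.550 for Kcnj13, 0.207 for Cd79a and 0 for Igkc. On the same scale P2ry12 stood at 200.4 CPM and Tmem119 at 274 CPM. Ttr and Ighm thus lay above the other members and above the microglial markers Itgam (21.5 CPM) and Sall1 (18.4 CPM). They lay below the rest of the 12 listed microglial markers. The immunoglobulin genes are a family of similar copies, so the counts of Ighm and Igkc are uncertain where reads could have been split between copies.

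The members also differed in how often they were absent, and so did other listed markers of the same cell types. Mbp, Cnp, Ighm and Cd79b had a count in every one of the 96 libraries. Ttr was at 0 in 18 libraries, Enpp2 in 13, Kcnj13 in 23, Cd79a in 45 and Igkc in 77. Among oligodendrocyte markers outside the 9, Mog, which encodes a myelin surface protein, was at 0 in 84 libraries, Opalin in 80 and Cldn11, the tight-junction protein of myelin, in 79. Mag, with a median of 10.2 CPM, and Aspa, with 3.56 CPM, had no library at 0. Among B-cell markers outside the 9, 8 of 16 were at 0 in more than 48 libraries, among them Vpreb3 (88), Mzb1 (85) and Blk (74). Another 7 were at 0 in 4 libraries or fewer: Bank1 (median 13.2 CPM), Ms4a1 (6.57 CPM), Ighd (4.35 CPM), Spib (2.21 CPM), Fcer2a (2.05 CPM), Cr2 (2.03 CPM) and Jchain (1.17 CPM). Mbp, Cnp, Ighm and Cd79b were thus present also where several markers of oligodendrocytes or B cells had no count while others had one, and they are called by their gene names below.

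Ttr and Enpp2 varied widely between animals, with coefficients of variation of 171% and 189.8% over all libraries. Enpp2 encodes autotaxin, the secreted enzyme that makes lysophosphatidic acid, and Kcnj13 encodes the inward-rectifier potassium channel Kir7.1 of the choroid plexus. In mm10, Ttr lies on chromosome 18 (20665280 to 20674321, plus strand), Enpp2 on chromosome 15 (54838901 to 54952892, minus strand) and Kcnj13 on chromosome 1 (87386363 to 87394729, minus strand). Over all libraries Ttr ran from 0 to 1184 CPM with a median of 45.1 CPM, and Enpp2 from 0 to 253 CPM with a median of 7.24 CPM. Kcnj13 never exceeded 8.22 CPM, or 26 counts. Exons of Enpp2 share 345 bases with Gm26684 on the opposite strand, and those of Kcnj13 share 623 bases with Gigyf2. Use of strand in counting is not stated, so reads in these stretches cannot be assigned. The level of Enpp2 did not follow that of Gm26684 over the 96 libraries (r = -0.08, a description across libraries).

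**Figure D1:**
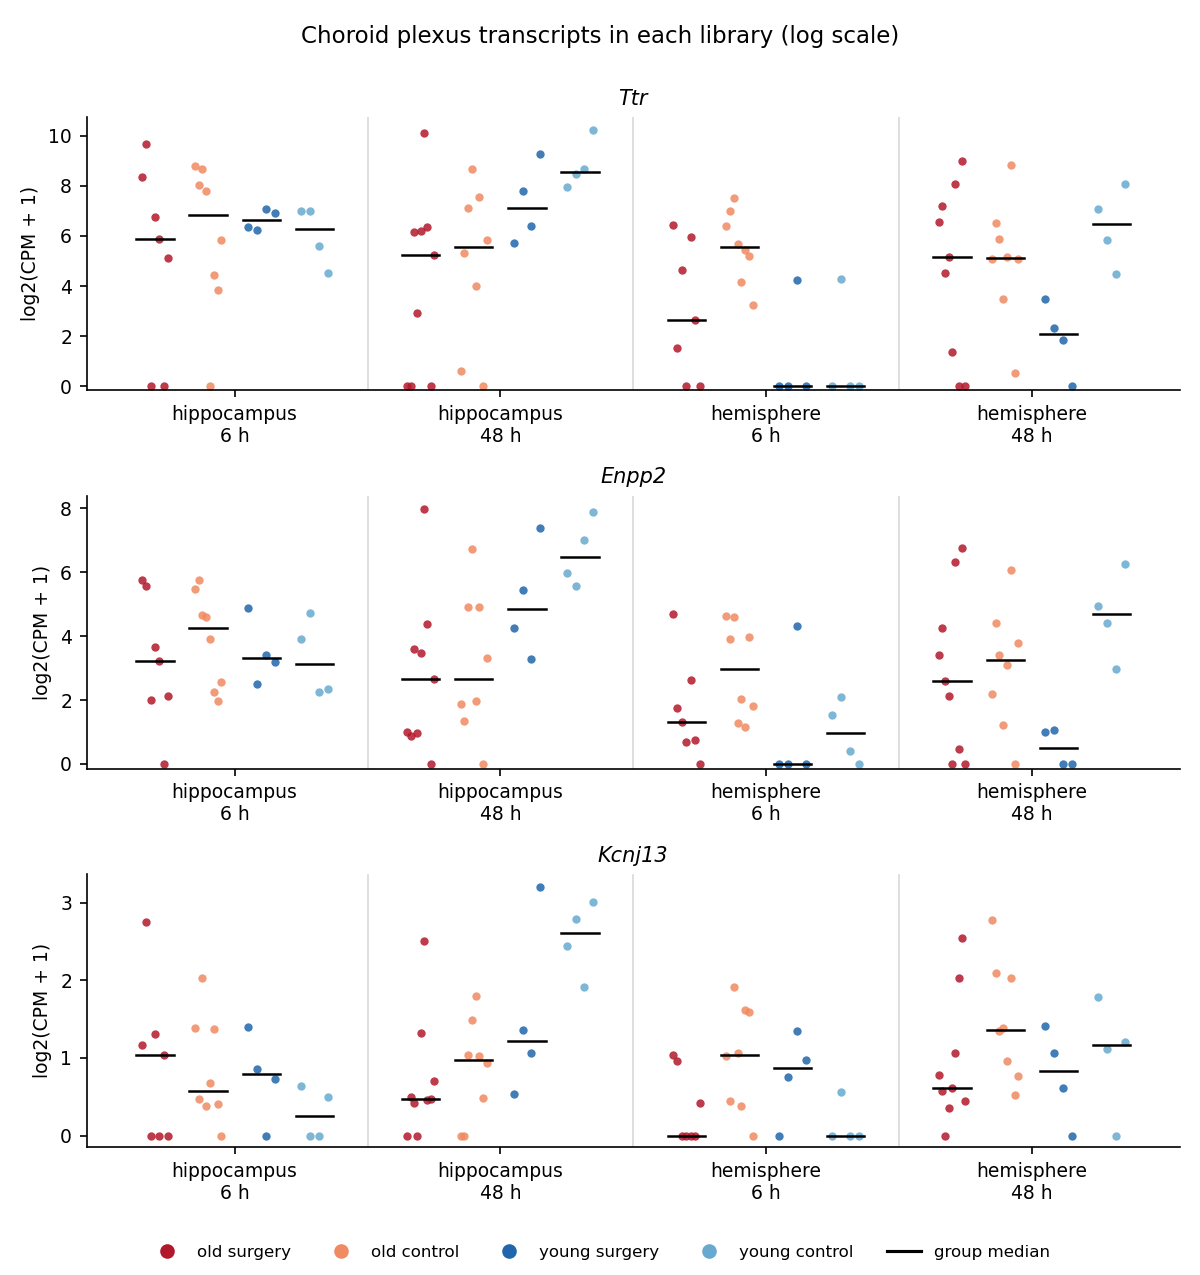
Levels of Ttr, Enpp2 and Kcnj13 in each library as log2(CPM + 1), by brain region, time, age and treatment. Each point is 1 library and each bar the group median. Ttr spans 0 to 1184 CPM, and in the young hemisphere at 6 h it is at 0 in 3 of 4 surgery and 3 of 4 control libraries.

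Ranked by group mean, Ttr was highest in the hippocampus of young control mice at 48 h, with 546.5 ± 429.5 CPM (SD, n = 4). The hippocampus of young surgery mice at 48 h followed with 243 ± 259 CPM (n = 4), then the old hippocampus at 6 h with 189.7 ± 293 CPM after surgery (n = 7) and 178 ± 182 CPM in controls (n = 8). At the low end stood the young hemisphere: at 6 h it had 4.46 ± 8.91 CPM after surgery and 4.58 ± 9.16 CPM in controls, and after surgery at 48 h 4.21 ± 4.35 CPM (n = 4 each). In between, the old hemisphere at 48 h had 118 ± 169 CPM after surgery (n = 9) and 89.7 ± 152 CPM in controls (n = 8). The ranges of every pair of neighbours in this order overlapped. Within the 16 groups the SD was often as large as the mean, and single libraries decided it: in the hippocampus of old surgery mice at 48 h, Ttr ran from 0 in 3 of 9 libraries to 1095 CPM, with a median of 37.01 CPM.

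The 2 regions of young brains were compared animal by animal. At 6 h, Ttr had 79.9, 74.5, 135 and 120.1 CPM in the hippocampus of the 4 young surgery mice, against 0, 0, 17.8 and 0 CPM in their hemisphere. In young control mice it had 126, 127, 47.5 and 21.7 CPM in the hippocampus, against 0, 18.3, 0 and 0 CPM in the hemisphere. The hippocampus library was thus the higher one in 8 of 8 young animals at 6 h, and every hippocampus value lay above every hemisphere value. At 48 h it was again higher in 8 of 8 young animals, with a median of 301 CPM in the hippocampus and 15.7 CPM in the hemisphere. Enpp2 was higher in the hippocampus in 7 of 8 young animals at 6 h (median 8.88 CPM against 0.157 CPM) and in 8 of 8 at 48 h (54.4 CPM against 3.99 CPM). Kcnj13 was higher there in 7 of 8 young animals at 48 h, with 3.61 CPM against 1.13 CPM, and in 4 of 8 at 6 h. How many of all genes were higher in as many animals, or without overlap, is not given here.

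In old brains the regions differed less evenly. Ttr was higher in the hippocampus in 9 of 15 old animals at 6 h and in 8 of 17 at 48 h. The medians at 48 h were 38.5 CPM in the hippocampus and 34.6 CPM in the hemisphere. Enpp2 was higher in the hippocampus in 13 of 15 old animals at 6 h and in 7 of 17 at 48 h.

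**Figure D2:**
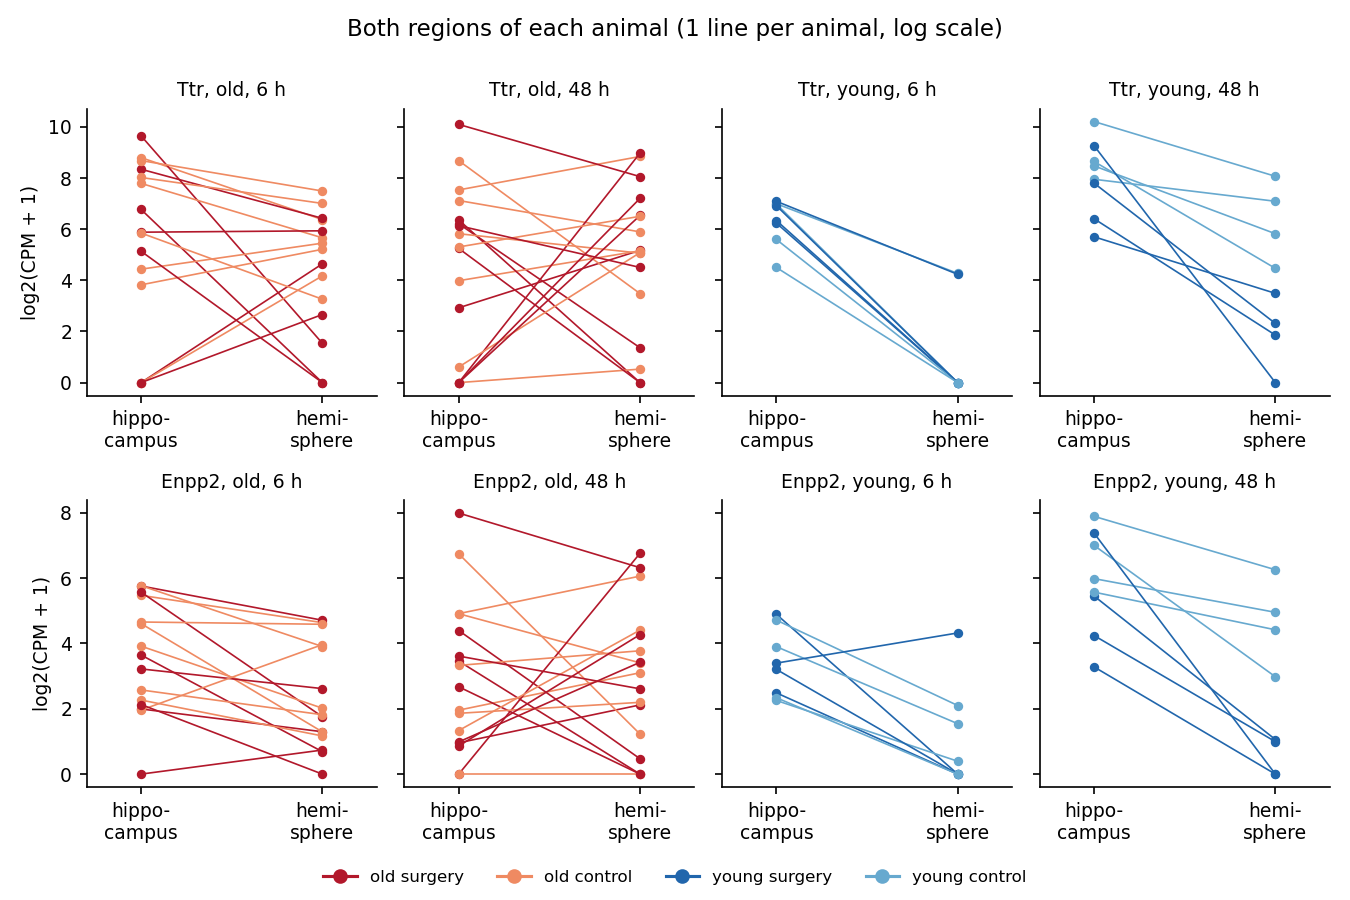
Ttr and Enpp2 in both regions of each animal as log2(CPM + 1). Each line joins the hippocampus and the hemisphere library of 1 animal. For Ttr the hippocampus end is the higher one in 17 of the 32 lines of the old animals and in all 16 lines of the young animals.

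None of these regional differences passed the test across all genes. With the animal as a block, edgeR's quasi-likelihood test gave Ttr a log2 fold change of 5.46 ± 1.31 (SE, hippocampus over hemisphere) in young mice at 6 h, with an unadjusted p of 0.00038 and a Benjamini-Hochberg adjusted p of 0.941. At 48 h it was 3.55 ± 1.32, with an adjusted p of 0.983. Enpp2 gave 3.07 ± 0.77 at 6 h and 3.09 ± 1.03 at 48 h, with adjusted p of 0.941 and 0.983. The test called 0 of the 6 members that passed the filter at 6 h and 0 of the 7 at 48 h, in either age, and the share of all genes called was 0% in young mice at both times and in old mice at 6 h, and 0.151% in old mice at 48 h. At an unadjusted p under 0.05 it gave 7 of 26 member values, against 4.74% to 8.12% of all genes in the 4 comparisons. DESeq2 called Ttr (log2 fold change 8.88, adjusted p = 1.81e-06) and Enpp2 (4.12, adjusted p = 0.00163) in young mice at 6 h, and the difference of the regional change of Ttr between old and young mice at 6 h (-7.85, adjusted p = 0.0282). edgeR gave that last difference as -4.30 ± 1.57, with an adjusted p of 0.98. Without the filter on low counts edgeR called 11 member values between regions. Among them Ttr in young mice at 6 h had a log2 fold change of 5.66 ± 0.264. Its fold change was thus close to that with the filter, and its SE was smaller. The call of the young regional difference thus depended on the tool and on the filter.

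Of the 8 surgery comparisons, the young hemisphere at 48 h was the one in which Ttr and Enpp2 separated the groups. Ttr had 10.2, 3.97, 2.63 and 0 CPM in the 4 surgery libraries, against 135, 55.6, 21.1 and 268 CPM in the 4 control libraries. Enpp2 had 0.992, 1.08, 0 and 0 CPM after surgery, against 29.97, 20.4, 6.89 and 75.4 CPM in controls. All 4 surgery values lay below all 4 control values for both genes. How many of all genes separated likewise at 4 against 4 libraries is not given here, so this is a description. The log2 fold change was -4.76 ± 1.83 for Ttr (unadjusted p = 0.0162) and -5.75 ± 1.97 for Enpp2 (unadjusted p = 0.00779), and edgeR's adjusted p was 1 for both. In that comparison 0% of 12250 genes were called. Kcnj13 overlapped, with 0.816 ± 0.712 CPM after surgery and 1.24 ± 1.01 CPM in controls (SD, n = 4 each), a level near 3 counts. In the hippocampus of the same young animals Ttr values overlapped, at 243 ± 259 CPM after surgery and 546.5 ± 429.5 CPM in controls. In the old hemisphere at 48 h Ttr medians were 35.1 CPM after surgery and 33.8 CPM in controls, with a log2 fold change of 0.34 ± 1.00. The difference of the surgery effect between old and young mice in the hemisphere at 48 h was 5.10 ± 2.06 for Ttr and 6.41 ± 2.19 for Enpp2. edgeR's adjusted p was 0.961 and 0.926 for these. In bulk RNA of 1000 cells, fewer cells of a type and less RNA per cell cannot be told apart.

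Between ages, Ttr in hemisphere controls at 6 h had 67.9 ± 58.8 CPM in old mice (lowest 8.59, n = 8) and 4.58 ± 9.16 CPM in young mice (n = 4). The log2 fold change was 4.06 ± 1.52 and the adjusted p 0.577 by edgeR. Kcnj13 in hippocampus controls at 48 h had 0.958 ± 0.861 CPM in old mice and 5.04 ± 1.85 CPM in young mice, and every old value (0 to 2.47 CPM) lay below every young value (2.77 to 7.04 CPM). Its log2 fold change was -2.28 ± 0.75 with an edgeR adjusted p of 0.384, and 0.0834% of all genes were called in that comparison. Of the 4 fits by region and time, Kcnj13 passed the filter in this 1 alone. Its mean in these young controls was the highest of all 16 groups, so the result is a description. The share of all genes without overlap there is not given here. edgeR called 0 of 52 member values tested between old and young mice in the 8 comparisons (6 or 7 members passed the filter in each). At an unadjusted p under 0.05 there were 8 of 52, against 5.96% to 11.3% of all genes, and edgeR called between 0% and 0.114% of all genes in these comparisons: among controls 0.0784% in the hemisphere and 0.0584% in the hippocampus at 6 h, and 0.0898% and 0.0834% there at 48 h. DESeq2 called Enpp2, higher in old than in young hemisphere after surgery at 48 h (log2 fold change 5.50, adjusted p = 0.0494).

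Ttr and Enpp2 moved together from animal to animal. After the group means were removed from log2 CPM, their Pearson r over the 48 hippocampus libraries was 0.83 (Spearman rho 0.87) and over the 48 hemisphere libraries 0.88 (rho 0.84). Each had a permutation p of 1e-05, the smallest that 100000 permutations within groups can give, and a Benjamini-Hochberg adjusted p of 0.00036 over 72 pairs. Without the 2 libraries farthest from the median of Ttr, r was 0.90 in the hippocampus and 0.87 in the hemisphere. Kcnj13 followed both in the hippocampus, with r of 0.51 to Ttr and 0.56 to Enpp2 (permutation adjusted p = 0.0101 and 0.00312). In the hemisphere it gave r of 0.40 and 0.44, with permutation adjusted p of 0.0644 and 0.0431. Between the hippocampus and hemisphere libraries of the 48 animals, r for Ttr was 0.01 (permutation adjusted p = 0.957), and 0 of 9 members had an adjusted p under 0.05. Over the 23 animals at 6 h alone, Ighm did, with r of 0.39 (rho 0.66, permutation adjusted p = 0.0353), and r was 0.31 without the 2 farthest animals.

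Of the genes with a mean log2 CPM of at least 2, Enpp2 was the one most like Ttr in both regions. In the hippocampus Dbi (r = 0.58), Usmg5 (0.55), Tm9sf3 (0.51) and Kl (0.51) came next, and Kl encodes Klotho, one of the listed choroid plexus markers. In the hemisphere the next were Mydgf (0.60), Pmm1 (0.51), Faap20 (0.50) and Papola (0.44). The 11 other choroid plexus markers, among them Folr1, Clic6 and Otx2, had a median r to Ttr of 0.50 in the hippocampus and 0.29 in the hemisphere, against medians of 0.02 and 0.01 over all genes. These correlations are descriptions over libraries that differ in depth. Their own summed level was low, 14.9 CPM at the median library and 53.3 CPM at the highest. Aqp1 was at 0 in 65 libraries, Cldn2 in 63 and Kcne2 in 62, whereas Calml4 was at 0 in 30 and Folr1 in 34, and Kl and Prlr in none.

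Mbp and Cnp behaved otherwise. Cnp encodes the myelin enzyme CNPase. Mbp lies on chromosome 18 (82475146 to 82585637, plus strand) and Cnp on chromosome 11 (100574904 to 100591729, plus strand). Cnp ran from 3.74 to 27.9 CPM with a median of 12.9 CPM, and its coefficient of variation over all libraries was 33.2%, against 171% for Ttr. Mbp had a median of 7.24 CPM and ran from 2.20 to 62.2 CPM. The highest Mbp value belonged to replicate 3 of the old control hemisphere at 6 h, the library that was also highest for Ighm and Igkc. Exons of Cnp share 154 bases with Dnajc7 on the opposite strand.

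**Figure D3:**
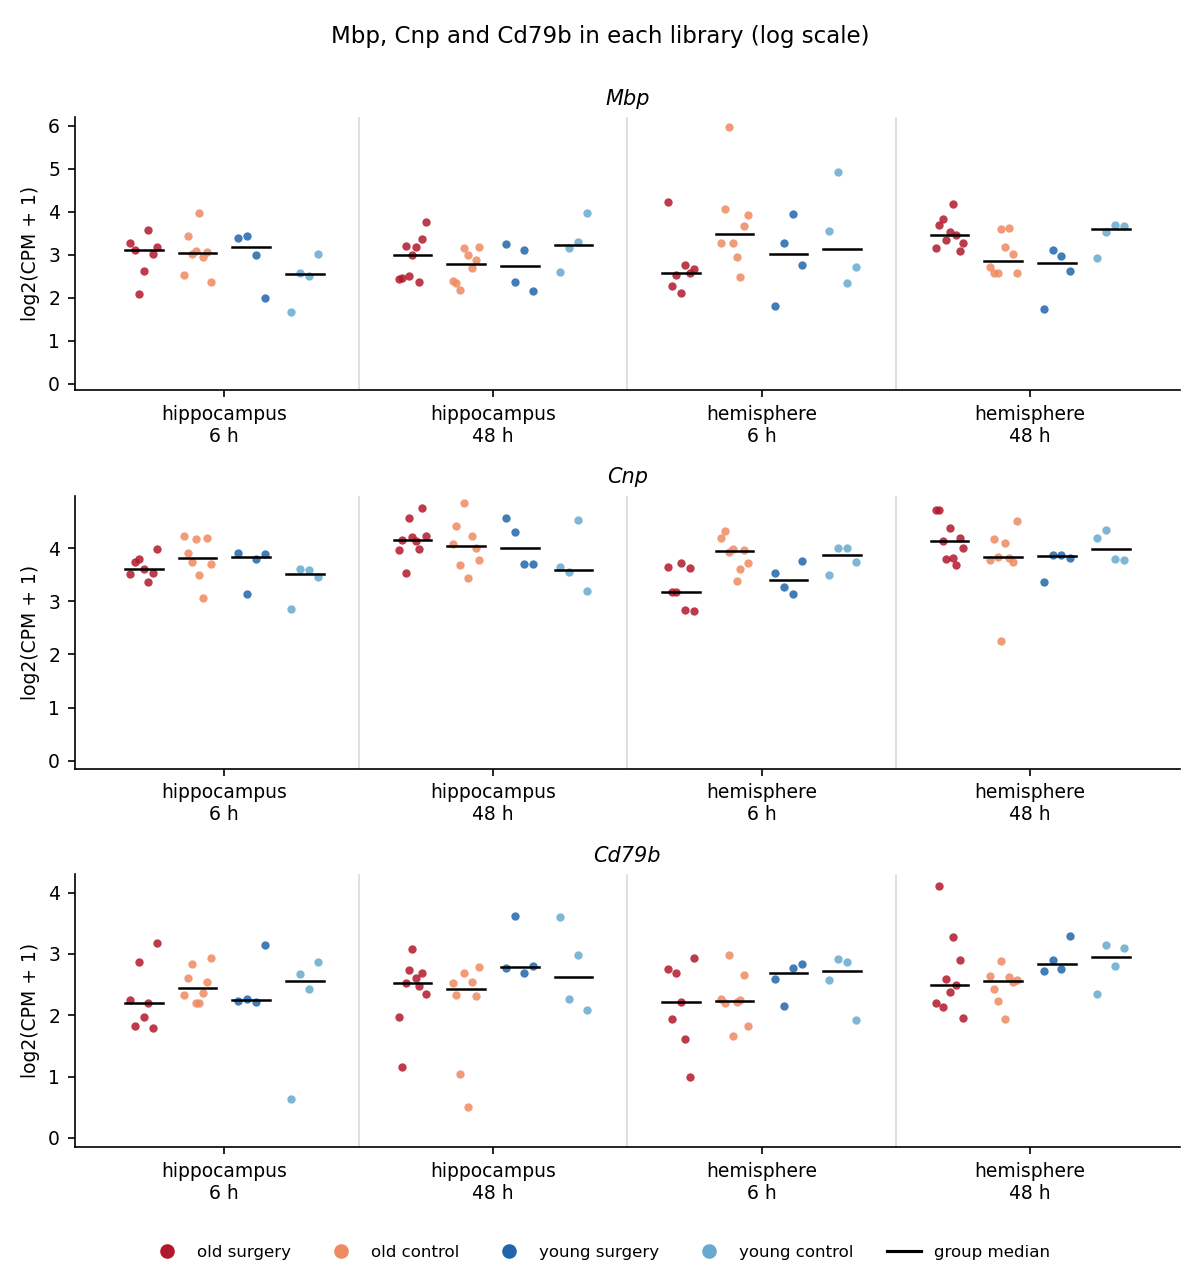
Levels of Mbp, Cnp and Cd79b in each library as log2(CPM + 1), by region, time, age and treatment. Each point is 1 library and each bar the group median. All 3 had a count in each of the 96 libraries, and Cnp stays between 3.74 and 27.9 CPM.

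After surgery, Mbp and Cnp were lower in the old hemisphere at 6 h without passing the test. Cnp had 9.05 ± 2.61 CPM after surgery (6.01 to 12.2, n = 7) and 14.1 ± 3.14 CPM in controls (9.45 to 19.0, n = 8). Its log2 fold change was -0.65 ± 0.20, with an unadjusted p of 0.0038 and an edgeR adjusted p of 0.246. Mbp had a median of 5.00 CPM after surgery and 10.2 CPM in controls, with a log2 fold change of -1.37 ± 0.54 and an adjusted p of 0.456. The groups overlapped for both genes. At 48 h Mbp in the hemisphere had 10.7 ± 3.02 CPM after surgery and 7.26 ± 2.74 CPM in controls in old mice (n = 9 and n = 8), and 5.48 ± 2.34 CPM after surgery and 10.2 ± 2.51 CPM in controls in young mice (n = 4 each). The log2 fold changes were 0.53 ± 0.24 in old mice and -0.92 ± 0.36 in young mice. The difference between these, 1.44 ± 0.43, had an unadjusted p of 0.00249 and an edgeR adjusted p of 0.731.

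No relation between Mbp and Cnp passed the test: r was -0.02 over the hippocampus libraries and -0.06 over the hemisphere libraries (permutation adjusted p = 0.939 and 0.842). The median r to the 11 other listed oligodendrocyte markers was -0.0009 for Mbp and -0.09 for Cnp in the hippocampus, and 0.04 for Mbp and -0.18 for Cnp in the hemisphere. To the 12 microglial markers, Cnp had a median r of 0.57 in the hippocampus and 0.43 in the hemisphere, against 0.13 and 0.07 over all genes. Without the stepped libraries these values were 0.54 and 0.50. The genes most like Mbp were Ppp2r3c, Lrig2, Tnrc6b, Inafm2 and Gfm1 in the hippocampus (r from 0.48 to 0.66) and Ogt, Pitrm1, Per3, Rab11a and Atxn7l3b in the hemisphere (r from 0.58 to 0.65), with no gene in both lists.

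Ighm, the constant region of the immunoglobulin mu heavy chain, was lower 6 h after surgery in old hemisphere microglia, and this was the single call among the 9 members. The gene lies on chromosome 12 (113418558 to 113422730, minus strand). Its level was 47.7, 35.7, 52.5, 55.7, 50.3, 52.04 and 51.8 CPM in the 7 surgery libraries. In the 8 control libraries it was 86.2, 91.5, 384, 80.1, 82.6, 71.1, 80.7 and 125 CPM. All 7 surgery values lay below all 8 control values, and 1 control library, replicate 3, stood far above the rest. The means were 49.4 ± 6.51 CPM after surgery and 125 ± 105.9 CPM in controls (SD). The log2 fold change was -1.35 ± 0.29 (SE), with an unadjusted p of 9.51e-05 and an adjusted p of 0.0334 by edgeR. In that comparison 0.0784% of 12760 genes were called lower. How many of them separated the groups without overlap is not given here. Called in either direction were 0.337% there, 0.0876% in the old hippocampus, 0.0627% in the young hemisphere and 0.0365% in the young hippocampus at 6 h, and 0% in all 4 comparisons at 48 h. Over the 8 surgery comparisons, 9 of 52 member values had an unadjusted p under 0.05, against 3.59% to 8.30% of all genes, and 1 was called.

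The size of this change rested on replicate 3 of the old controls, and the call held without it. Without that library the log2 fold change was -0.85 and the adjusted p 0.00733. Without the 6 libraries holding 10 or more Igkc counts in the whole series it was -0.84 with an edgeR adjusted p of 0.0141. This left 21 of the 23 libraries in this fit. Of 23 refits that each left out 1 library of that fit, 7 gave no call, with adjusted p up to 0.0876 and log2 fold changes between -1.43 and -0.85. These were the refits without surgery replicate 1, 2, 3, 4, 5 or 7 and without control replicate 8. Without a filter on low counts edgeR's adjusted p was 0.109. With the old animals restricted to the library numbers of the young it was 0.294 at a log2 fold change of -2.05. That last fit held 14 of the 23 libraries, control replicate 3 among them.

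**Figure D4:**
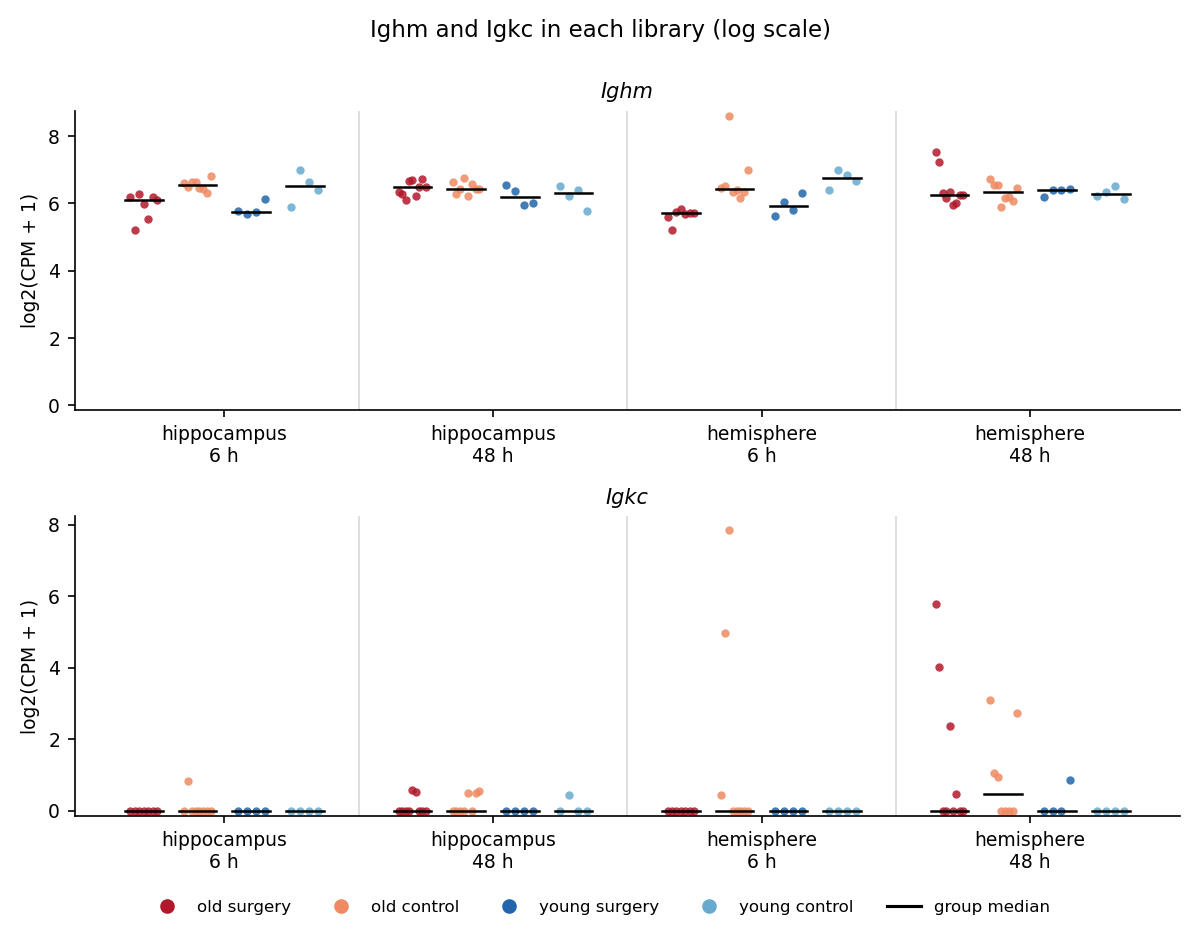
Levels of Ighm and Igkc in each library as log2(CPM + 1), by region, time, age and treatment. Each point is 1 library and each bar the group median. At 6 h the Ighm values after surgery lie below the control values in the old hippocampus, the old hemisphere and the young hemisphere, and Igkc is at 0 in 77 of 96 libraries.

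Ighm pointed the same way in the other 3 comparisons at 6 h, without passing the test. The old hippocampus had 61.7 ± 15.1 CPM after surgery (36.3 to 76.4, n = 7) and 93.3 ± 10.2 CPM in controls (79.0 to 112, n = 8). All 7 surgery values lay below all 8 control values there. The log2 fold change was -0.60 ± 0.17, with an edgeR adjusted p of 0.230 and 0.0073% of all genes called lower. The young hemisphere had 48.3, 65.0, 55.4 and 77.8 CPM after surgery, against 83.5, 126, 114 and 101 CPM in controls. These did not overlap either, at a log2 fold change of -0.79 ± 0.39, an adjusted p of 1 and 0.00784% of all genes called lower. The young hippocampus had 53.7, 50.9, 52.1 and 68.8 CPM after surgery, against 58.2, 126, 99.01 and 82.7 CPM in controls, where 3 of 4 surgery values lay below every control value. Its log2 fold change was -0.67 ± 0.23 and the adjusted p 0.476. For these comparisons too, the share of all genes without overlap is not given here.

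At 48 h the groups overlapped in all 4 comparisons. Ighm had 87.1 ± 13.7 CPM after surgery and 88.2 ± 11.03 CPM in controls in the old hippocampus, and 81.1 ± 5.91 CPM after surgery and 78.3 ± 8.88 CPM in controls in the young hemisphere. The log2 fold changes at 48 h ran from -0.03 to 0.20, in the old hippocampus and the old hemisphere, and edgeR's adjusted p from 0.967 to 1. The difference between the times was not tested. The difference of the surgery effect on Ighm between old and young mice in the hemisphere at 6 h was -0.56 ± 0.48, which did not pass the test (edgeR adjusted p = 0.999).

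Ighm was the one B-cell marker called in that comparison. In the old hemisphere at 6 h, 7 of the 20 listed B-cell markers passed the filter, 1 was called lower and 0 higher, with a median log2 fold change of -0.78 against -0.02 over all genes tested. Cd79b, the other member among them, had 3.93 ± 2.11 CPM after surgery and 3.96 ± 1.51 CPM in controls, a log2 fold change of -0.03 ± 0.34. The summed level of the 16 B-cell markers outside the 9 ran from 23.7 to 40.8 CPM after surgery and from 37.3 to 136 CPM in controls in that setting, with medians of 28.3 and 51.7 CPM. The highest control value was that of replicate 6, where Cr2, a complement receptor of B cells, alone had 90.2 CPM. Without Cr2 the sum ran from 20.98 to 39.3 CPM after surgery (median 22.8) and from 30.8 to 76.4 CPM in controls (median 41.6). The summed level of the 12 microglial markers ran from 5500 to 9330 CPM after surgery and from 5062 to 8816 CPM in controls. The part of either in the Ighm result was not tested.

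Animal to animal, Ighm ran with microglial genes in the hippocampus. The 5 genes most like it there were Pld4 (r = 0.81), Siglech (0.80), Tmem86a (0.79), Susd3 (0.79) and Arhgap45 (0.77), and Siglech encodes a lectin of microglia that is among the listed markers. Over the 12 microglial markers the median r to Ighm was 0.62 in the hippocampus and 0.33 in the hemisphere, against 0.13 and 0.08 over all genes. Over the 16 other B-cell markers it was -0.14 in the hippocampus and 0.11 in the hemisphere. Without the stepped libraries the value for the microglial markers was 0.54 in the hippocampus and 0.32 in the hemisphere. In the hemisphere the genes most like Ighm were Uqcrb, Rplp0, Lgals9, Capzb and Cbx6, with r from 0.57 to 0.61.

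**Figure D5:**
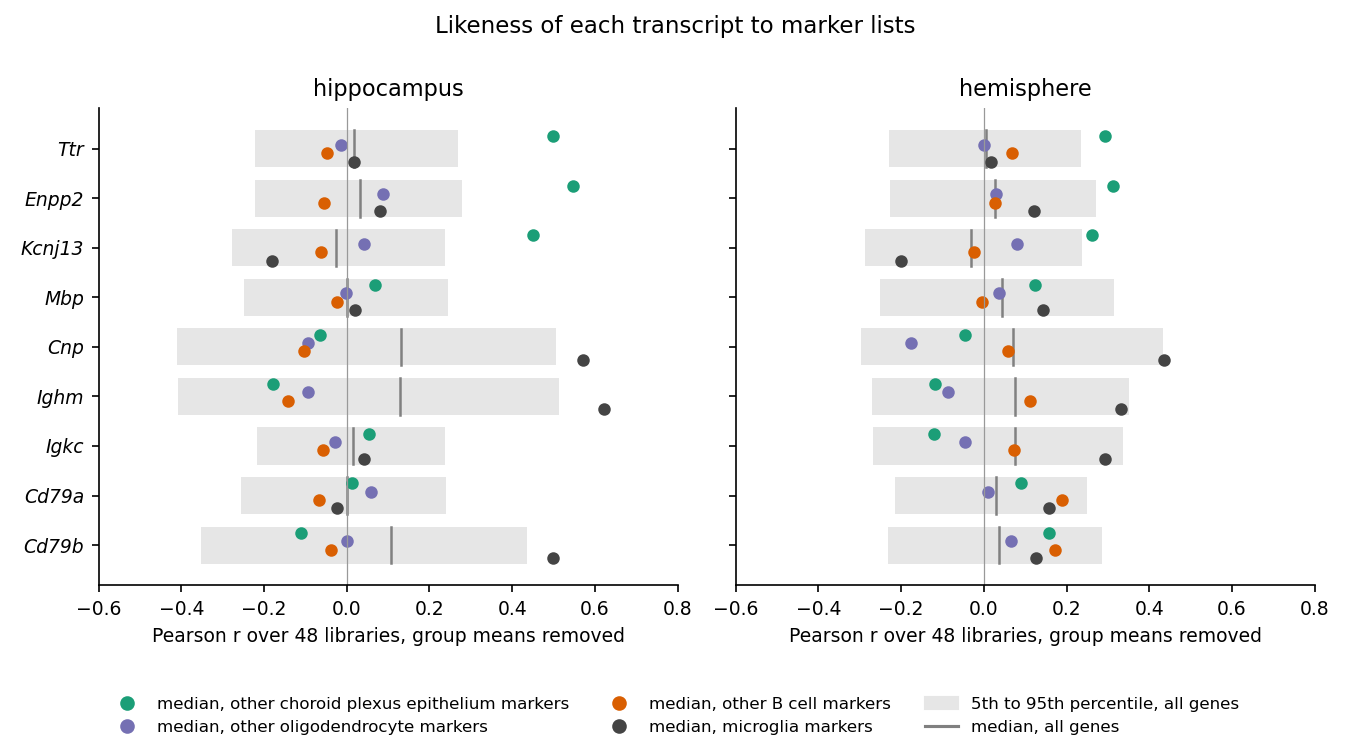
Median Pearson r of each transcript to 4 marker lists over the 48 libraries of a region, after removal of group means. Grey boxes span the 5th to 95th percentile of r over all genes compared and grey lines their median. In the hippocampus the choroid plexus markers lie to the right of the box for Ttr, Enpp2 and Kcnj13, and the microglial markers lie to the right of it for Cnp, Ighm and Cd79b.

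Cd79b, the beta chain of the B-cell receptor's signalling pair, was present in every library, whereas its partner Cd79a had too few counts for the 2 to be compared. It lies on chromosome 11 (106311341 to 106314762, minus strand) and ran from 0.412 to 16.3 CPM, with a median of 4.81 CPM. Its r to Ighm was 0.57 over the hippocampus libraries (rho 0.57, permutation adjusted p = 0.00288), and its r to Cnp was 0.47 there (rho 0.43, permutation adjusted p = 0.0228). Cnp and Ighm gave 0.53 (rho 0.53, permutation adjusted p = 0.00264). Without the 2 farthest libraries these were 0.50, 0.45 and 0.51. Over all genes compared in the hippocampus, the median r was 0.108 for Cd79b, 0.132 for Cnp and 0.130 for Ighm. The 95th percentile was 0.437, 0.506 and 0.512. The permutation test set r against 0 and not against these values. To the 12 microglial markers Cd79b had a median r of 0.50 in the hippocampus and 0.13 in the hemisphere. No surgery or age comparison of Cd79b passed the test, with log2 fold changes from -0.17 to 0.33 after surgery.

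Igkc, the constant region of the kappa light chain, showed the opposite pattern: absent from most libraries and high in a few. The gene lies on chromosome 6 (70726435 to 70726966, plus strand). It had 10 or more counts in 6 libraries, and all 6 were among the 32 hemisphere libraries of old mice. Of these, 2 were old surgery libraries at 48 h, replicates 1 and 2, and 4 were old controls: replicates 2 and 3 at 6 h and replicates 1 and 8 at 48 h. Any Igkc count was found in 11 of the 32 old hemisphere libraries, in 6 of the 32 old hippocampus libraries and in 2 of the 32 young libraries. No hippocampus or young library had more than 2 counts. Igkc passed the filter in the hemisphere at 48 h alone, where its log2 fold change after surgery in old mice was 2.04 ± 1.14, with an edgeR adjusted p of 0.9.

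The 3 libraries with the most Igkc counts each carried different leading variable segments. These libraries and segments were chosen after their values were seen. Replicate 3 of the old control hemisphere at 6 h had 499 counts of Igkc and 834 of Ighm, with 286 of Igkv3-4, 124 of Ighv1-55 and 56 of Jchain, the chain that joins secreted IgM and IgA. Its count of Cd79a was 1. Replicate 2 of the same group had 549 counts of Igha, the IgA heavy chain, with 84 of Igkc, 74 of Ighv3-6, 36 of Igkv6-14 and 136 of Jchain, and its Ighm level of 91.5 CPM lay among those of the other controls. Among the 90 libraries with fewer Igkc counts, Igha did not exceed 3 counts, Igkv3-4 7 counts, Ighv1-55 9 counts and Jchain 26 counts.

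At 48 h the old surgery hemisphere gave 2 unlike libraries. Replicate 1 had 150 counts of Igkc, 103 of Igkv4-55, 49 of Ighv1-53 and 25 of Jchain, with 2 of Cd79a. Replicate 2 had 31 counts each of Igkc and Cd79a, 14 of Vpreb3 and 14 of Ly6d, with 1 of Jchain. Among the 90 libraries with fewer Igkc counts, Cd79a did not exceed 4 counts, Vpreb3 2 and Ly6d 3, while Cd79b reached 43 counts, more than the 33 of replicate 2. Vpreb3 is a gene of B cells before they become plasma cells, and Jchain is raised in plasma cells. Among those 90 libraries Vpreb3 was at 0 in 83, and Jchain had a median of 3 counts and reached 26. Within these ranges, the 3 libraries with most Igkc counts had Vpreb3 at 0, and the library with 14 Vpreb3 counts had 1 Jchain count. The other 2 libraries, old controls at 48 h, had 23 and 16 Igkc counts, the first with 22 of Igkv10-96, a segment that did not exceed 2 counts in the 90 libraries, and the second with no segment above 13 counts. Replicate 2 of the surgery group was led by Ighd with 24 counts and Iglc1 with 13, and its highest variable segment was Iglv1 with 11. Among the 90 libraries Ighd had a median of 11 counts and reached 41, whereas Iglc1 did not exceed 3 and Iglv1 1.

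The leading segments came with smaller counts of close copies, and their first coding bases are shown because they set how far such counts can be told apart. The 132 bases from the start codon are given for the leading segment and for the copy counted beside it, in lower case with the bases that differ within each pair in capitals (GENCODE transcripts, release M21, mm10). Igkv3-4 lies at chr6:70671788-70672377 on the plus strand, and Igkv3-11, annotated as a pseudogene, at chr6:70553239-70553862 on the same strand. Replicate 3 had 286 counts of Igkv3-4 and 22 of Igkv3-11.
Igkv3-4: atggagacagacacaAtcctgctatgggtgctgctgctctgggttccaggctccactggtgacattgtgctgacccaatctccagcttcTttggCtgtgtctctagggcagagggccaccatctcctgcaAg
Igkv3-11: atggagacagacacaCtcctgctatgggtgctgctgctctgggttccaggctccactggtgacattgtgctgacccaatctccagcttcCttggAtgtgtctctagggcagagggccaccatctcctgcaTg
They differ at 4 of the 132 bases, and the longest identical stretch is 73 bases. Ighv3-6 (chr12:114288152-114288582, minus strand) and Ighv3-4 (chr12:114253617-114254051, minus strand) had 74 and 14 counts in replicate 2.
Ighv3-6: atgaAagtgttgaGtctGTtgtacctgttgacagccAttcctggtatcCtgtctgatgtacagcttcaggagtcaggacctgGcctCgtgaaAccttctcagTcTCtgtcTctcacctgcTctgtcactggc
Ighv3-4: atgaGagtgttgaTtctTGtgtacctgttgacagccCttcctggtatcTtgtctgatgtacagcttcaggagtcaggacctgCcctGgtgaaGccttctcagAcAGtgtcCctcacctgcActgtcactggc
They differ at 14 of the 132 bases, with a longest identical stretch of 33 bases. A read inside such a stretch could belong to either copy.

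Over the 48 hemisphere libraries Ighm and Igkc gave an r of 0.80 (rho 0.64, permutation adjusted p = 0.00302), and 0.57 without the 2 libraries farthest from the median. In the hippocampus their pair did not reach a permutation adjusted p of 0.05. Igkc at 6 h was at 0 in all 7 old surgery hemisphere libraries and in 5 of 8 old control ones. A count of 0 allows up to 3 counts, or 0.914 to 1.57 CPM in these surgery libraries. Cd79a, on chromosome 7 (24897381 to 24902197, plus strand), stayed at 4 counts or fewer in the 90 libraries with fewer Igkc counts and passed the filter in no fit. Group differences in Cd79a were thus not tested in the main fits, and the 31 counts named above belong to 1 library.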

How the data were processed

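Estimated counts per gene were deposited as 4 tables, 1 for each region and time, with Ensembl gene IDs and whole numbers. Per the submitters' processing notes, mm10, R 4.2.1 and DESeq2 1.36.0 were used by the authors. The aligner, counter and strand setting remain not given in the sources used here. Of 54532 gene models 54495 matched an annotated symbol, and 0 sample columns were left unused. In 6 libraries low counts came in steps larger than 1, so depth is less certain there. The tests were planned for raw counts and were run on these deposited whole numbers as they stand.

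Counts were scaled by TMM and tested with edgeR 4.0.16 (quasi-likelihood, robust) in R 4.3.3 after its expression filter at a minimum count of 10. Benjamini-Hochberg adjustment ran over all genes tested, with a threshold of 0.05. Surgery, age and their interaction came from 1 fit for each region and time. Regions were compared with the animal as a block, since the labels give both libraries of an animal 1 number. Deviations of both libraries of an animal correlated over 0.1 in 12 of 15 old animals at 6 h, 4 of 17 at 48 h, and 3 of 8 and 4 of 8 young animals at these times. Among animals of that age and time, the hippocampus library correlated best with its own hemisphere library in 5, 2, 1 and 1 of these. DESeq2 1.42.0 was an alternative. Correlations used log2 CPM with a prior count of 2, group means removed, and 100000 permutations within groups. Scripts were tested on simulated data. Named beside the 9 members are the 5 genes most like Ttr, Mbp and Ighm in each region, among genes with a mean log2 CPM of at least 2 and leaving out predicted symbols, together with the listed markers. Members and lists were chosen with earlier results of these data known. Nothing in the labels says that animals of a group came from separate litters or sorting days, so p-values measure the spread between these animals alone. One listed B-cell marker is not reported here.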

Additional observations from a re-analysis of the deposited data

Results flagged for a closer look

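Of 144 sets of a transcript in a group, 21 held a highest or lowest library whose gap to its nearest neighbour was large against the range of the group (Dixon's criterion). Chance flags about 1 in 20 groups. The library was the highest in 16 sets and the lowest in 5.

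Among the choroid plexus transcripts, Ttr had 17.8 CPM in replicate 3 of the young surgery hemisphere at 6 h and 18.3 CPM in replicate 2 of the young control hemisphere at 6 h, with the others of each group at 0. Enpp2 had 19 CPM in the same surgery library, and Kcnj13 had 0.47 CPM, or 1 count, in the same control library.

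Mbp stood out at 17.8 CPM in replicate 1 of the old surgery hemisphere at 6 h and at 62.2 CPM in replicate 3 of the old control hemisphere at 6 h. Ighm was lowest, at 35.7 CPM, in replicate 2 of the old surgery hemisphere at 6 h, and highest, at 384 CPM, in the control library that was also highest for Mbp. Cnp was lowest at 9.26 CPM in replicate 1 of the young surgery hemisphere at 48 h, at 7.86 CPM in replicate 2 of the young surgery hippocampus at 6 h and at 3.74 CPM in replicate 4 of the old control hemisphere at 48 h.

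Cd79a had 15.3 CPM in replicate 2 of the old surgery hemisphere at 48 h. Cd79b had 7.9 CPM in replicate 4 of the young surgery hippocampus at 6 h and 11.3 CPM in replicate 2 of that group at 48 h. The other sets rested on 0 to 2 counts. They were Igkc at 0.797 CPM in the young surgery hemisphere at 48 h, at 0.78 CPM in the old control hippocampus at 6 h and at 0.347 CPM in the young control hippocampus at 48 h. Cd79a had 0.448 CPM in the young surgery hippocampus at 48 h, 0.305 CPM in the old surgery hemisphere at 6 h, 0.383 CPM in the young control hemisphere at 6 h, and 0 in replicate 2 of the old control hippocampus at 48 h.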

How the results depend on the processing

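After surgery 1 of the 9 transcripts was called. The count was 0 without the filter on low counts and 0 with the replicate block. It was also 0 with old animals restricted to the library numbers of the young. Leaving out 1 library gave 0 to 1, with 7 of 96 refits at 0. Those 7 were among the 23 refits of the fit that held the call. With the block the Ighm change in the old hemisphere at 6 h was -1.05 with an edgeR adjusted p of 0.123. The labels do not say that a number shared by surgery and control animals pairs them. In none of the 8 sets did every same-numbered pair correlate over 0.1. It was 3 of 7 in the old hemisphere at 6 h, 6 of 8 there at 48 h and 3 of 4 in the young hemisphere at 48 h. In these sets 0 of 7, 4 of 8 and 3 of 4 correlated best with their own number. Between ages the count was 0 by edgeR and 1 by DESeq2. Between regions it was 0, with 3 by DESeq2, 11 without the filter and 0 without the animal block. Correlated pairs numbered 12, and 4 over the animals at 6 h alone. Between the regions of an animal 0 members were correlated, with 1 when group means were kept and 1 at 6 h. The cause of these changes was not tested. Of 5126 refits of 169 single values, 5103 kept the call or its absence, 13 gained a call and 10 lost one. All 10 losses were refits of Ighm in the old hemisphere at 6 h, the single value called in the main fits. The other values had no call to lose. Direction was compared only where the main fit or the refit made a call, and 0 of those reversed. Depth limits Kcnj13, Cd79a and Igkc, whose median counts were 2, 1 and 0.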
